A study of Mus musculus with 6 samples.

Results

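The genes examined here encode proteins that sense, export, store and digest cholesterol and other lipids. They were chosen by name, as the rows of the 6 deposited expression tables whose gene symbol was Nr1h2, Nr1h3, Ch25h, Abca1, Abcg1, Soat1, Plin2, Lipa, Npc1 or Npc2. All 10 had a row among the 36629 genes listed, and all 10 were expressed highly enough to be tested, among 17435 genes. In the injured mouse spinal cord 7 of the 10 were higher than in sham-operated cord, led by Plin2, Abca1 and Ch25h, 1 was lower (Abcg1) and 2 did not pass the test (Nr1h2 and Npc1). Among all genes tested, 26.7% passed as higher and 30.8% as lower.

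A phagocyte that takes up myelin debris or dying cells carries a large load of cholesterol, which it cannot break down. Cholesteryl esters that reach the lysosome are split by the acid lipase encoded by Lipa, and the free sterol leaves the lysosome by way of the NPC2 and NPC1 proteins. Surplus cholesterol is esterified again by SOAT1 and kept in lipid droplets, which PLIN2 coats, or is exported by the transporters ABCA1 and ABCG1. Oxysterols, among them the product of CH25H, activate the liver X receptors (LXRs), nuclear receptors encoded by Nr1h3 and Nr1h2 that are known to switch on Abca1 and Abcg1.

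RNA was taken from the T8 to T12 segments of the cord of C57/BL6 mice aged 3 to 5 weeks, 3 days after surgery. In 3 libraries (SCI, for spinal cord injury) the cord was laid bare by removing the bony roof of vertebrae T9 and T10 and was then squeezed with a vascular clip of 60 g force for 5 seconds. In the other 3 libraries (sham) the bone was removed and the cord was not crushed; the treatment label of these samples reads untreated. No transgene or mutation is named for either group. The values are FPKM (fragment numbers scaled for the length of the gene and for the size of the library) as the authors gave them. The depth in reads is unknown, and FPKM summed to between 716215 and 734791 per library. The labels number the libraries but do not say that each came from its own animal, so p-values measure the spread between these libraries only. The piece of cord is a mixture of cells. Marker genes of monocyte-derived macrophages summed to 1375 to 2435 FPKM in SCI libraries, against 120 to 165 FPKM in sham libraries. The test called 8 of 8 higher, beside 26.7% of all genes tested. Ccr2, Ms4a7, Plac8 and Arg1 were below 1 FPKM in every sham library, so they could not have been called lower. Most of each SCI sum was Lyz2 (910 to 1610 FPKM) and Arg1 (141 to 623 FPKM). Ccr2 was at 4.59 to 10.4 FPKM in SCI and 0.21 to 0.71 FPKM in sham libraries. Ms4a7 was at 3.78 to 7.61 FPKM in SCI and 0.13 to 0.34 FPKM in sham libraries. Markers of oligodendrocytes and myelin summed to 4094 to 4992 FPKM in SCI libraries and 6828 to 7437 FPKM in sham libraries. The test called 5 of 6 lower, beside 30.8% of all genes tested. Neuronal markers marked both groups as nervous tissue, at 1120 to 1926 FPKM in SCI libraries and 3513 to 4159 FPKM in sham libraries. Fewer cells of a type and less RNA per cell cannot be told apart in such tissue. SCI replicate 2 had 6.16% of its FPKM in haemoglobin genes, against 0.211% to 0.656% in the other SCI libraries and 0.109% to 0.126% in sham libraries. SCI replicate 3 held transcripts of sensory ganglion neurons (Scn10a at 6.60 FPKM, listed at 0 in the other 5 libraries). Scn11a, Isl2, Trpv1 and Calca of the same list were also highest there. Prph, the remaining gene of that list, was at 74.5 FPKM there, below the sham libraries at 81.0 to 106 FPKM. SCI replicate 3 also held the most of the muscle transcripts Acta1 (224 FPKM, against 2.94 to 32.7 FPKM elsewhere), Ckm and Tnnt3. The muscle transcript Myh4 was highest in sham replicate 3 (15.85 FPKM, against 12.64 FPKM in SCI replicate 3). The part of all these transcripts in the results was not tested.

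The count of 8 members past the threshold is read against a large background. In limma, with a Benjamini-Hochberg adjusted p under 0.05 as the threshold, 57.5% of all genes tested differed between SCI and sham libraries, 26.7% higher and 30.8% lower in SCI. The groups did not overlap for any of the 10 members, with 8 higher and 2 lower in SCI. Of all genes tested 67.6% did not overlap, 30.7% higher and 36.9% lower in SCI. The median log2 change of the 10 members was 0.78, beside −0.08 over all genes tested. Each log2 change is the SCI mean of log2(FPKM + 1) less the sham mean, a scale that makes changes of low genes look smaller.

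**Figure D1:**
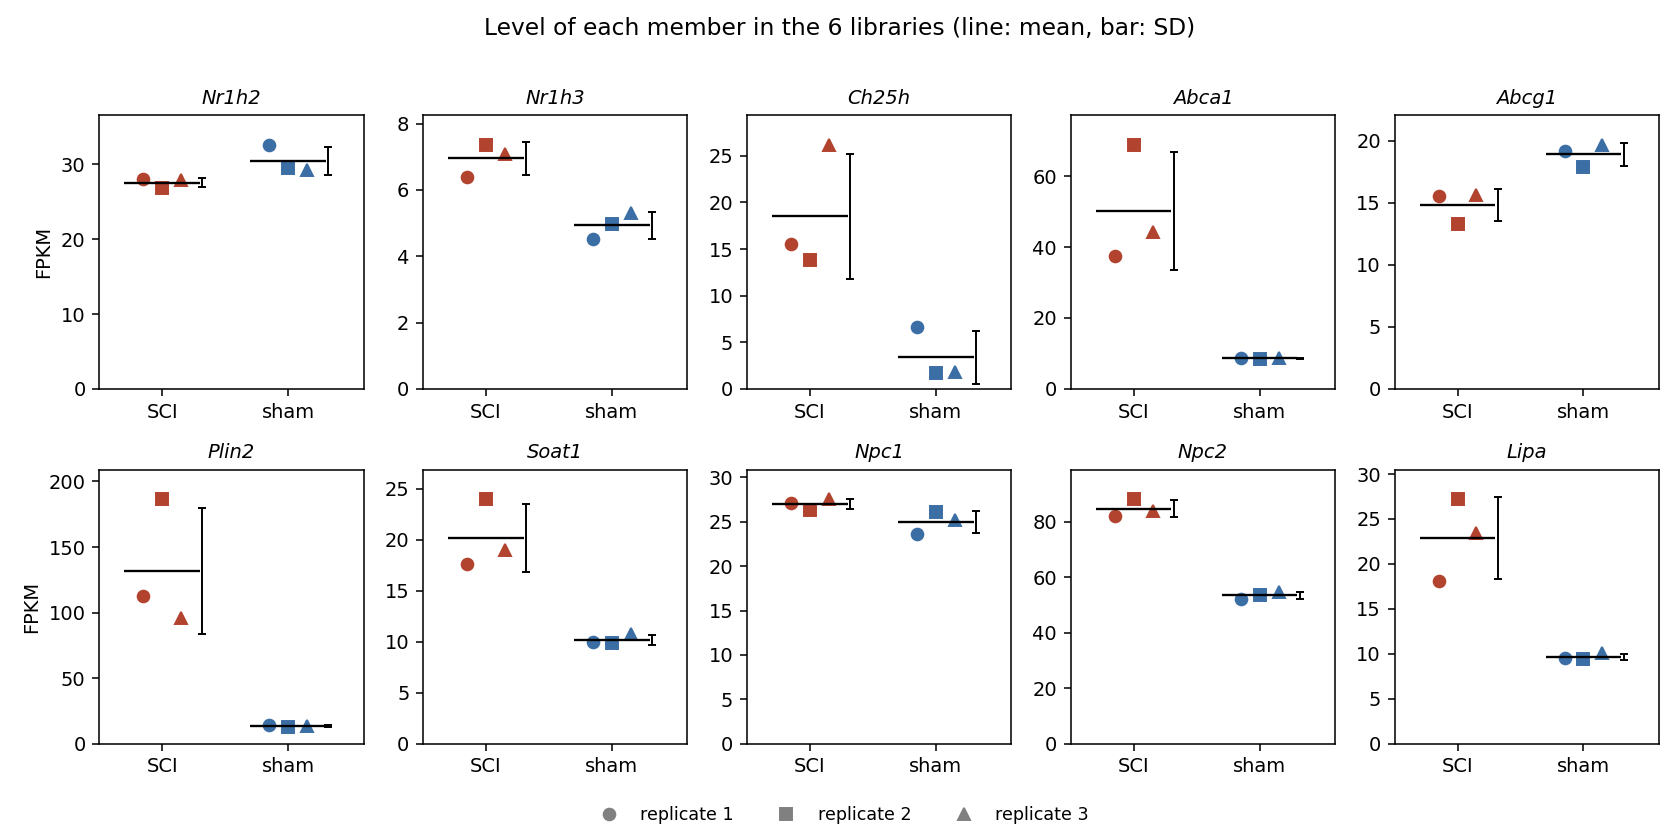
FPKM (vertical axis, linear from 0) of each of the 10 members in the 3 SCI libraries (left) and the 3 sham libraries (right) of its panel; symbols mark replicates, lines the group mean and bars the SD. Plin2 reaches 96.3 to 186 FPKM in SCI libraries, against 12.6 to 14.4 FPKM in sham libraries, while Npc1 and Nr1h2 differ little between the groups.

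The promoters of the 3 members with the largest rises are shown, because motifs of known factor families can be read in them. Each promoter is shown from 250 bases before the RefSeq start site to 10 bases after it (GRCm38.p6). Capitals mark a palindromic E-box (CACGTG) in Plin2 and Abca1, both repeat units of an imperfect direct repeat in Abca1, and a cyclic AMP response element (TGACGTCA) in Ch25h.
Plin2: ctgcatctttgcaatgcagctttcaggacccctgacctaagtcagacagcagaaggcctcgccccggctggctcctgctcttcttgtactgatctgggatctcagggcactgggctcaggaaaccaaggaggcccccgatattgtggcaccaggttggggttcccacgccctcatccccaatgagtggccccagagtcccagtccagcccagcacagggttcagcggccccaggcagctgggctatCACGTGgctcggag
Abca1: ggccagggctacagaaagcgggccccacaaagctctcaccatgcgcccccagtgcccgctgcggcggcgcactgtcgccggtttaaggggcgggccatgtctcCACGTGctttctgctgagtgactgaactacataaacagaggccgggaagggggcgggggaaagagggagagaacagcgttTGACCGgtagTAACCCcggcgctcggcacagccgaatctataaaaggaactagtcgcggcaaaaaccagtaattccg
Ch25h: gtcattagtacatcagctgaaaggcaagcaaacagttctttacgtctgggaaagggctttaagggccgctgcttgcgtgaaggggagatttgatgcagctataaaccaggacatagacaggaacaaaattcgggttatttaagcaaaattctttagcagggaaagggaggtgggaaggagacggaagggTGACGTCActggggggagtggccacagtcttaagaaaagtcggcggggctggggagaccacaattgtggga
The Plin2 stretch is chr4:86670050-86670309, the Abca1 stretch chr4:53159886-53160145 and the Ch25h stretch chr19:34475139-34475398, all on the minus strand. Counted from the start site, with bases before it negative, the E-box began at −147 in Abca1 and at −4 in Plin2, where it crosses the start site. The E-box is the letter core bound by several basic helix-loop-helix factors, TFEB and TFE3 of lysosome and lipid genes among them, and 7.15% of the 32851 promoters in the table hold it on either strand. LXR with its partner RXR is known to bind direct repeats of the form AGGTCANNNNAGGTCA, with 4 bases between the repeats. In Abca1 a match with 3 mismatches ran on the reverse strand from −67 to −52, and 21.9% of all promoters hold a match at least as close on either strand, so that such a match is common. The response element of Ch25h ran from −61 to −54, and 1.79% of all promoters hold these letters. A TATAAA stretch began at −29 in Abca1, and 13.6% of promoters hold one on either strand. Of the members, 8 had an entry in the promoter table, and Abcg1 and Npc1 had none. The E-box, the direct repeat and the response element were found for no other of these 8 members, which says only that the letters are not in these windows.

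Of the LXR genes, Nr1h3 rose and Nr1h2 did not pass. Nr1h3 (LXR-alpha, the form of macrophages and liver) was at 6.40, 7.37 and 7.10 FPKM in SCI replicates 1, 2 and 3, against 4.52, 4.96 and 5.32 FPKM in sham replicates 1, 2 and 3. Each SCI library was above each sham library, and the mean was 1.41-fold higher (6.96 ± 0.501 and 4.93 ± 0.401 FPKM, SD, n = 3 each). The log2 change was 0.42 (SE 0.10, limma adjusted p = 0.0103). Nr1h2 (LXR-beta, the form found in most cells) was at 28.0, 26.9 and 27.9 FPKM in SCI libraries, against 32.7, 29.5 and 29.3 FPKM in sham libraries. It was the more abundant receptor in every library. Its log2 change was −0.14, with a 95% interval from −0.32 to 0.04 (limma adjusted p = 0.158), so a fall of up to 0.32 on the log2 scale lies within the interval.

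Ch25h, which encodes an enzyme that adds a hydroxyl group to the side chain of cholesterol, rose from low levels. It was at 15.5, 13.9 and 26.2 FPKM in SCI libraries, against 6.69, 1.75 and 1.77 FPKM in sham libraries. SCI replicate 3 was the highest library, and sham replicate 1 stood above the other sham libraries but below every SCI library. The mean was 5.45-fold higher (18.5 ± 6.70 and 3.40 ± 2.85 FPKM, SD, n = 3 each), and 10.5-fold higher without sham replicate 1. The log2 change was 2.28 (SE 0.42, limma adjusted p = 0.00338), the widest error among the members, and it was 2.77 without sham replicate 1 and 2.01 without SCI replicate 3. Ch25h is an intronless gene with 1 annotated exon, on chromosome 19 from 34473778 to 34475164 (GRCm38, as the files list it). Its next neighbour among the members is Lipa, on the same strand after a gap of 17153 bases. The noncoding gene Gm26902 overlaps Ch25h on the other strand, at 0.87 to 1.24 FPKM in SCI and 0.70 to 0.86 FPKM in sham libraries. Since the strand setting of the counting is not given in the sources used here, reads of the overlap could have been shared.

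The efflux transporters went in opposite directions. Abca1, which hands cholesterol and phospholipid to lipid-poor apolipoproteins, was at 37.4, 68.9 and 44.2 FPKM in SCI libraries, against 8.84, 8.38 and 8.61 FPKM in sham libraries. The sham libraries lay within a narrow range and every SCI library was at least 4.34-fold above their mean. The mean was 5.83-fold higher (50.2 ± 16.6 and 8.61 ± 0.230 FPKM, SD, n = 3 each), and the log2 change was 2.37 (SE 0.20, limma adjusted p = 0.000127). Abcg1, which moves sterol to lipoprotein particles that already carry lipid, was at 15.5, 13.3 and 15.7 FPKM in SCI libraries, against 19.2, 17.9 and 19.7 FPKM in sham libraries. Its mean was 21.6% lower in SCI, with a log2 change of −0.33 (SE 0.09, limma adjusted p = 0.0173). The direction held when any 1 library was left out. The call ended without sham replicate 1 (log2 change −0.32, limma adjusted p = 0.0582) and without sham replicate 3 (−0.31, limma adjusted p = 0.0658).

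Both genes of ester storage rose. Plin2, which coats lipid droplets in most cell types, was at 113, 186 and 96.3 FPKM in SCI libraries, against 14.4, 12.6 and 13.5 FPKM in sham libraries. It had the largest change of the 10 members and ranked 156 of the 17435 genes tested by log2 change. The mean was 9.75-fold higher (132 ± 47.9 and 13.5 ± 0.930 FPKM, SD, n = 3 each), and 7.73-fold higher without SCI replicate 2. The log2 change was 3.14 (SE 0.22, limma adjusted p = 6.0e-05). Soat1, the cholesterol acyltransferase of most tissues, was at 17.6, 24.0 and 19.0 FPKM in SCI libraries, against 9.96, 9.89 and 10.8 FPKM in sham libraries. Its rise was smaller, at 1.98-fold, with a log2 change of 0.91 (SE 0.12, limma adjusted p = 0.000817).

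Of the lysosomal genes, Lipa and Npc2 rose, while Npc1 did not pass. Lipa, the lysosomal acid lipase, was at 18.1, 27.2 and 23.5 FPKM in SCI libraries, against 9.52, 9.47 and 10.1 FPKM in sham libraries. The mean was 2.37-fold higher, with a log2 change of 1.14 (SE 0.14, limma adjusted p = 0.000607). Npc2, the soluble protein that takes cholesterol from the lysosomal lumen, was at 82.0, 87.9 and 83.8 FPKM in SCI libraries, against 52.0, 53.4 and 54.7 FPKM in sham libraries. Its replicates were close in both groups, with an SD of 3.61% of the mean in SCI and 2.54% in sham libraries. The mean was 1.58-fold higher, with a log2 change of 0.65 (SE 0.07, limma adjusted p = 0.000273). Npc1, the membrane protein that receives the sterol from NPC2, was at 27.1, 26.3 and 27.5 FPKM in SCI libraries, against 23.6, 26.1 and 25.2 FPKM in sham libraries. The lowest SCI library was just above the highest sham library. The log2 change was 0.11, with a 95% interval from −0.06 to 0.28 (limma adjusted p = 0.238). Npc1 overlaps Rmc1, at a mean of 12.2 FPKM in SCI and 13.65 FPKM in sham libraries, and Gm15956, at 1.80 to 2.84 FPKM in SCI and 0 to 2.60 FPKM in sham libraries, on the other strand.

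**Figure D2:**
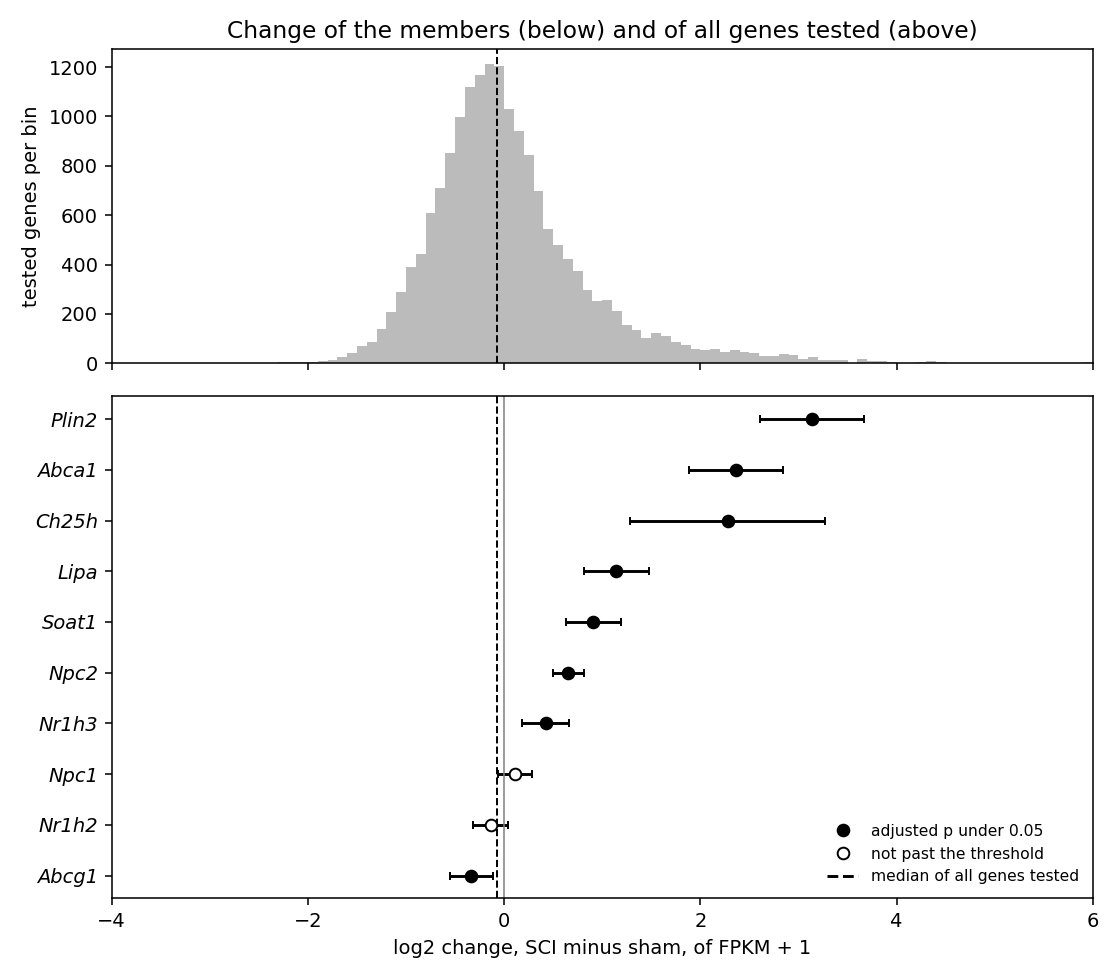
Log2 change (horizontal axis, SCI minus sham, of FPKM + 1) of all 17435 genes tested as a histogram (above, values beyond the axis counted in the outermost bins) and of the 10 members with limma's 95% interval (below); filled points passed the threshold. Plin2, Abca1 and Ch25h lie at 3.14, 2.37 and 2.28, far to the right of the median of all genes at −0.08.

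Members that act as pairs were also compared within each library, where a factor common to the library cancels. These 3 pairs were chosen with the values known. The ratio of Abca1 to Abcg1 FPKM was 2.41, 5.18 and 2.83 in SCI replicates 1, 2 and 3, against 0.461, 0.469 and 0.437 in sham replicates 1, 2 and 3. Abca1 was thus above Abcg1 in every SCI library and below it in every sham library. The ratio of Nr1h3 to Nr1h2 averaged 0.252 ± 0.0227 in SCI libraries and 0.163 ± 0.0222 in sham libraries (SD, n = 3 each). The ratio of Npc2 to Npc1 averaged 3.14 ± 0.174 in SCI libraries and 2.14 ± 0.0826 in sham libraries (SD, n = 3 each). For each ratio the groups did not overlap. For Abca1 over Abcg1 and Nr1h3 over Nr1h2 this had to follow. In both the first gene was higher and the second lower without overlap, so the test below could give no other p. An exact two-sided permutation test gave p = 0.1 for each ratio, the smallest that 3 libraries against 3 allow. It was also 0.1 after Benjamini-Hochberg adjustment over the 3 ratios.

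**Figure D3:**
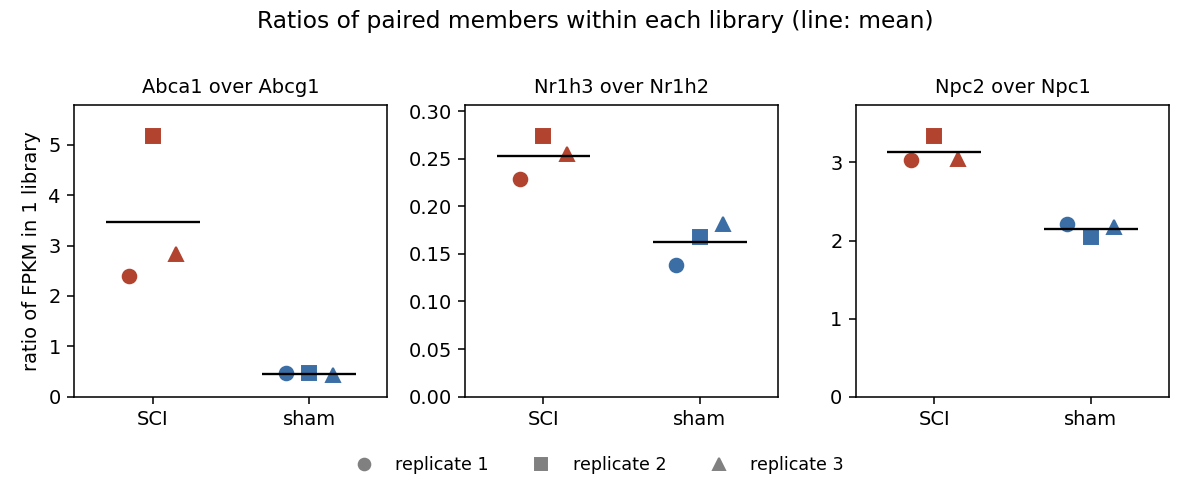
Ratio of the FPKM of 2 members within a library (vertical axis, linear from 0) for 3 pairs, in SCI (left) and sham (right) libraries; symbols mark replicates and lines the group mean. Abca1 over Abcg1 lies at 2.41 to 5.18 in SCI libraries, against 0.437 to 0.469 in sham libraries, and the other two pairs separate by less.

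The order of the levels differed between the groups. FPKM are scaled for gene length, so levels of different genes can be set beside each other. In SCI libraries Plin2 was the most abundant member (mean 132 FPKM), followed by Npc2 (84.6) and Abca1 (50.2), each apart from the next. Below them Nr1h2, Npc1, Lipa, Soat1, Ch25h and Abcg1 followed from 27.6 to 14.8 FPKM, and each overlapped its next neighbour in that order. Nr1h3 was the lowest, at 6.96 FPKM. In sham libraries Npc2 was the most abundant (53.4 FPKM), followed by Nr1h2, Npc1, Abcg1 and Plin2, each apart from its neighbours. Soat1 (10.2) and Lipa (9.69) overlapped, Abca1 (8.61) stood apart, and Nr1h3 (4.93) and Ch25h (3.40) overlapped at the bottom. Abca1 was thus the third of 10 in SCI libraries and the eighth of 10 in sham libraries.

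The SCI libraries differed among themselves more for some members than for others. Of the 7 members that rose, 6 were highest in SCI replicate 2, and the exception was Ch25h, which was lowest there. Abcg1, the member that fell, was also lowest in SCI replicate 2. The SD between SCI libraries was 36.4% of the mean for Plin2, 36.2% for Ch25h and 33.1% for Abca1, and 2.15% to 19.9% for the other 7 members. In the same library 7 of 8 markers of monocyte-derived macrophages were highest among the SCI libraries, and all 6 neutrophil markers and all 5 red blood cell markers were too. So were 4 of 6 homeostatic microglial, 3 of 6 endothelial and 2 of 6 astrocyte markers, but no oligodendrocyte or neuronal marker. The share of all genes highest in that library is not given here. Ly6g, a defining neutrophil marker, was at 0.19 to 0.93 FPKM in SCI and 0 to 0.49 FPKM in sham libraries. Homeostatic microglial markers summed to 302 to 371 FPKM in SCI libraries, against 80.3 to 90.9 FPKM in sham libraries. The test called 6 of 6 higher, beside 26.7% of all genes tested. Their rises in mean FPKM ran from 1.19-fold for Sall1 to 11.8-fold for Fcrls. The part of these cells in the members' values was not tested. Without SCI replicate 2 the log2 changes were 2.86 for Plin2, 2.12 for Abca1, 1.02 for Lipa and 0.79 for Soat1, and all of these passed.

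**Figure D4:**
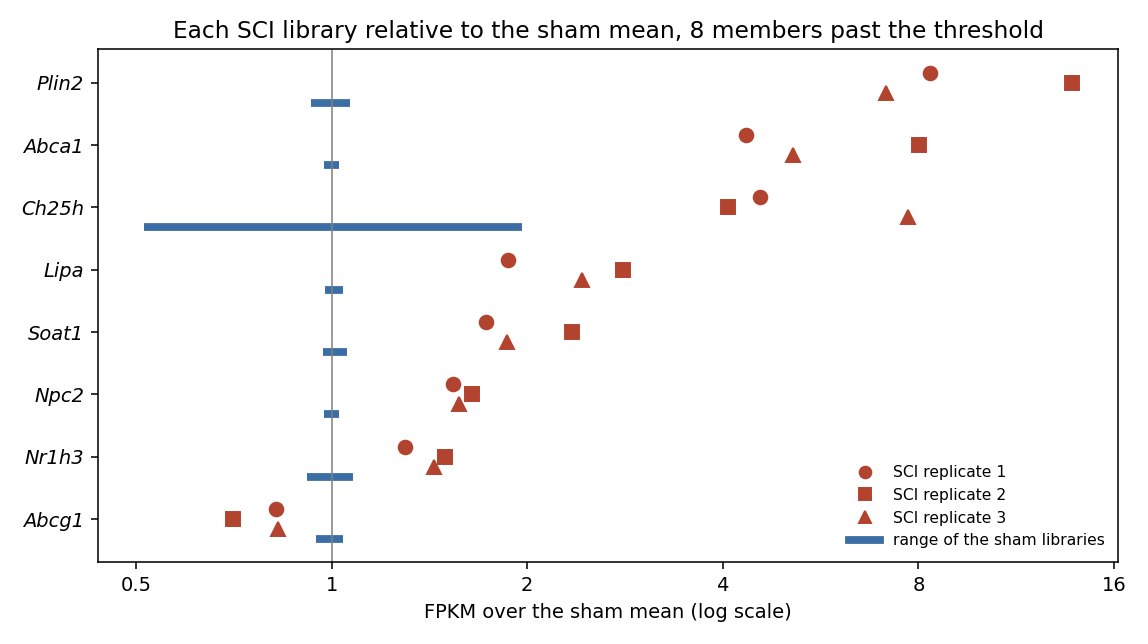
FPKM of each SCI library over the sham mean (horizontal axis, log scale) for the 8 members past the threshold; red symbols are SCI replicates and blue bars the range of the sham libraries. Plin2 lies at 8.34, 13.8 and 7.13 times the sham mean in SCI replicates 1, 2 and 3, and replicate 2 is the farthest from 1 for all but Ch25h.

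The genes whose pattern over the 6 libraries was most like a member's were named by Pearson correlation of log2(FPKM + 1) among tested genes with a mean of at least 5 FPKM. The 6 points share the split into groups, so high values are common. For Plin2 they were Myh9, Prep and Slc25a24, with r from 0.9996 to 0.9999. For Abca1 they were Mob1a, Pmepa1 and Tmem164, with r from 0.9993 to 0.9997. For Ch25h they were Armc5, Ccs and Zdhhc13, with r from 0.993 to 0.999, genes that were high in sham replicate 1 among the sham libraries and in SCI replicate 3 among the SCI libraries. For Nr1h2 they were Tmem141, Foxj2 and Ccdc9, with r from 0.984 to 0.991.

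A further 6 related lists were set beside the members. They hold 78 genes, of which 74 were tested, and 27 were higher and 18 lower in SCI libraries, or 60.8% of those tested, a share near the 57.5% of all genes tested. LXR targets and sterol carriers went both ways, with 3 of 11 higher, 3 lower and 5 not past the threshold (median log2 change 0.08), near the 26.7% higher and 30.8% lower of all genes tested. Lpcat3, which puts polyunsaturated chains into phospholipids and is known to be induced by LXR, was at 29.5, 26.8 and 25.6 FPKM in SCI libraries, against 13.4, 11.0 and 12.9 FPKM in sham libraries (log2 change 1.08, limma adjusted p = 0.000189). Abcg4, the close relative of Abcg1 found in neurons and glia, fell to 14.4, 9.63 and 14.9 FPKM in SCI libraries, against 24.8, 25.0 and 24.1 FPKM in sham libraries (log2 change −0.90, limma adjusted p = 0.00239). Abca2, a lipid transporter abundant in oligodendrocytes, also fell (log2 change −0.83, limma adjusted p = 0.00185). Apoe, the main cholesterol carrier of the nervous system, was at 1229, 1624 and 1508 FPKM in SCI libraries and at 1359, 1103 and 1229 FPKM in sham libraries. These ranges overlapped, and the log2 change of Apoe was 0.24 (limma adjusted p = 0.173), or −0.02 under quantile normalization.

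LXR partners and PPARs, the related fatty acid receptors, had few genes past the threshold. Of 8 genes tested of 9, 1 was higher and 2 lower (median log2 change −0.03), beside 26.7% higher and 30.8% lower of all genes tested. Ppara was below the filter, at 0.47 to 0.89 FPKM in SCI and 0.46 to 1.28 FPKM in sham libraries. Ppard, a fatty acid sensor, was at 9.18, 8.92 and 9.44 FPKM in SCI libraries, against 5.18, 5.37 and 5.17 FPKM in sham libraries (log2 change 0.71, limma adjusted p = 0.00051). Rxrg, a retinoid X receptor of the kind that pairs with LXR, was lower (−0.89, limma adjusted p = 0.0299), a call that ended without sham replicate 1 (−0.79) or sham replicate 3 (−0.84). Without SCI replicate 2 the log2 change of Rxrg was −0.56, and it passed. The coactivator gene Ncoa1 was lower (−0.35, limma adjusted p = 0.0314), a call that ended without any 1 sham library (−0.35, −0.32 and −0.38 without replicates 1, 2 and 3) or without SCI replicate 3 (−0.37). Rxrb, another retinoid X receptor, did not pass (−0.26), but did without SCI replicate 3 (−0.34), with quantile normalization (−0.27) and rescaled without mitochondrial and haemoglobin genes (−0.28).

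Genes of oxysterol metabolism had 5 of 9 lower and 2 higher (median log2 change −0.44), beside 30.8% lower and 26.7% higher of all genes tested. Insig2 was among the 5, and its call ended without sham replicate 2 (−0.41) or sham replicate 3 (−0.44). The 2 that rose lie downstream of Ch25h. Hsd3b7, an enzyme that acts on hydroxylated sterols, was at 26.1, 23.6 and 26.2 FPKM in SCI libraries, against 9.09, 8.43 and 9.61 FPKM in sham libraries (log2 change 1.39, limma adjusted p = 3.4e-05). Gpr183, the receptor through which dihydroxylated sterols guide immune cells, was at 2.88, 5.07 and 4.68 FPKM in SCI libraries, against 0.70, 0.84 and 0.46 FPKM in sham libraries (log2 change 1.62, limma adjusted p = 0.00061). Gpr183 met the filter only through its SCI libraries, so it could not have been called lower. Cyp7b1, whose product stands between those of Ch25h and Hsd3b7, was at 8.40 to 9.67 FPKM in SCI and 7.79 to 10.3 FPKM in sham libraries and did not pass (log2 change 0.02). Cyp46a1, the neuronal enzyme that hydroxylates cholesterol for export from the brain, was at 14.9, 10.1 and 15.7 FPKM in SCI libraries, against 33.2, 28.3 and 32.7 FPKM in sham libraries (log2 change −1.17, limma adjusted p = 0.00094). Insig1, which holds back sterol synthesis, fell as well (log2 change −1.04, limma adjusted p = 0.000626). Neuronal markers were lower with them, 5 of 6, and their part was not tested.

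Other droplet genes went both ways. Of 17 tested of 20, 4 were higher and 6 lower (median log2 change −0.02), again near the 26.7% and 30.8% of all genes tested. Plin1, Plin5 and Fitm1 were below the filter, at no more than 2.49 FPKM in any library. Hilpda, a droplet protein that inhibits lipolysis, was at 40.5, 69.5 and 16.6 FPKM in SCI libraries, against 7.62, 8.36 and 6.32 FPKM in sham libraries (log2 change 2.15, limma adjusted p = 0.00525). Its SCI libraries differed widely, with replicate 2 the highest, as for Plin2, and its log2 change was 1.69 without SCI replicate 2 and 2.69 without SCI replicate 3. Plin4, a relative of Plin2, was at 6.53, 3.91 and 3.75 FPKM in SCI libraries, against 2.06, 1.06 and 2.00 FPKM in sham libraries (log2 change 1.07, limma adjusted p = 0.0066). Soat2, the relative of Soat1 best known from liver and gut, was at 1.17 to 2.22 FPKM in SCI libraries and listed at 0.15 FPKM in sham replicate 1 and at 0 in the other sham libraries (log2 change 1.42, limma adjusted p = 0.00115). Soat2 met the filter only through its SCI libraries, so it could not have been called lower. Plin3 (log2 change −0.05) and the cholesteryl ester hydrolase gene Nceh1 (0.05), the most abundant of the list over all 6 libraries, did not pass. Fitm2, which helps droplets bud from the endoplasmic reticulum and was named after its values were seen, was at 18.9, 16.04 and 20.0 FPKM in SCI libraries, against 28.7, 27.0 and 26.9 FPKM in sham libraries (log2 change −0.57, limma adjusted p = 0.00236). Of the 6 genes that were lower, it alone kept the call when any 1 library was left out. Without sham replicate 1 the list had 6 genes past the threshold in all, and without sham replicate 3 it had 5.

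Lysosomal lipid genes rose or did not pass. Of 19 tested, 9 were higher and none was lower (median log2 change 0.25), and by unadjusted p under 0.05 the count of lower genes was 0. Of all genes tested, 26.7% were higher and 30.8% lower by adjusted p. Hexa, which encodes a subunit of a lysosomal hexosaminidase that degrades gangliosides, was at 125, 154 and 144 FPKM in SCI libraries, against 56.2, 45.3 and 52.3 FPKM in sham libraries (log2 change 1.44, limma adjusted p = 8.3e-05). Psap, the precursor of the saposin cofactors, was the most abundant of the list, at 1347 to 1564 FPKM in SCI and 1136 to 1239 FPKM in sham libraries (log2 change 0.33, limma adjusted p = 0.0242). The call on Psap ended without SCI replicate 3 (0.29), sham replicate 2 (0.30) or sham replicate 3 (0.33), and quantile normalization gave a log2 change of 0.08.

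Genes of lipid uptake changed most among the lists, with 8 of 10 higher and 2 lower (median log2 change 1.41). Of all genes tested, 26.7% were higher and 30.8% lower. Msr1, the scavenger receptor of macrophages, was at 27.8, 33.1 and 24.7 FPKM in SCI libraries, against 0.37, 0.24 and 0.31 FPKM in sham libraries (log2 change 4.49, limma adjusted p = 7.8e-06). Cd36, a receptor for fatty acids and oxidised lipoproteins, was at 16.6, 35.8 and 30.1 FPKM in SCI libraries, against 1.83, 1.00 and 2.20 FPKM in sham libraries (log2 change 3.37, limma adjusted p = 0.000131). Cd36 had every SCI library above every sham library. Msr1 and Olr1, the latter also counted as higher, were below 1 FPKM in every sham library. They met the filter only through the SCI libraries, so their groups could not overlap. The fatty acid binding protein genes Fabp7 (log2 change 1.90, limma adjusted p = 1.9e-05) and Fabp5 (1.23, limma adjusted p = 0.000101) rose too. Vldlr, a receptor for lipoproteins that was named after its values were seen, was lower (log2 change −0.54), a call that ended without any 1 sham library (−0.56, −0.54 and −0.52 without replicates 1, 2 and 3).

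**Figure D5:**
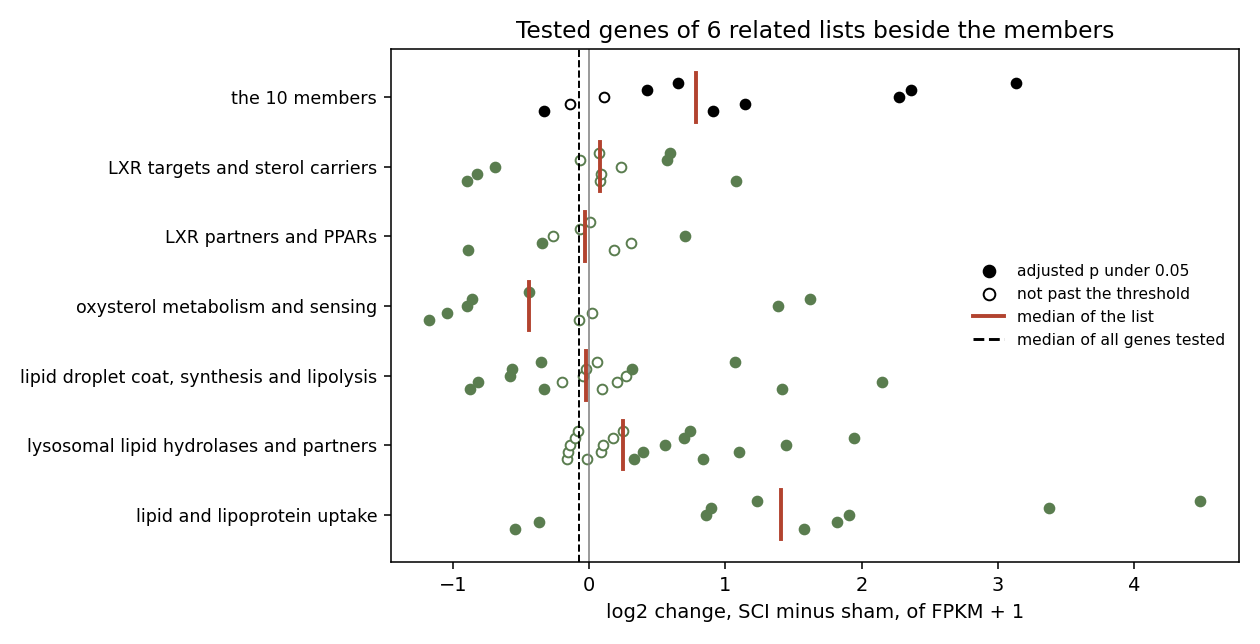
Log2 change (horizontal axis, SCI minus sham, of FPKM + 1) of each tested gene of 6 related lists and of the 10 members; filled points passed the threshold, red bars are list medians and the dashed line is the median of all genes tested. The list medians run from −0.44 (oxysterol metabolism) to 1.41 (lipid uptake), and the members' median is 0.78.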

How the data were processed

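The authors deposited FPKM for every gene, rounded to 2 decimals (per the file headers). Tools named in the submitters' processing notes, without roles, are HISAT2 2.0.4, StringTie 1.3.4d, cutadapt 1.9, UMI-tools, edgeR and DESeq2. The notes give the build as mm9, but 33485 (91.7%) of the 36502 identifiers also found in GENCODE M21 had its GRCm38 position, so coordinates are given as GRCm38. The annotated end of Nr1h2 differed by 2 bases. The sources used here give neither the strand setting nor how molecular identifiers were merged. Low values of short genes showed no step common to all genes (fullest bin of log2 ratios 2.37% to 3.69%), so no reads were recovered and depth is unknown.

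A gene was tested if 3 or more of the 6 libraries reached 1 FPKM. A gene below 1 FPKM in every sham library could thus be tested only if every SCI library reached 1 FPKM. Such a gene could not be called lower. Of the listed genes this held for Soat2, Gpr183, Msr1, Olr1, Ccr2, Ms4a7, Plac8, Arg1 and Mmp8. The test was limma 3.58.1 (R 4.3.3) on log2(FPKM + 1), with group as the only term and the prior variance trended on the mean. Benjamini-Hochberg adjustment ran over all genes tested. The members, the 6 related lists, the marker lists and the alternatives were chosen with earlier results of these data known. Named were all members and, from each related list, the 3 called genes that moved farthest and the 2 of highest mean FPKM; other genes were named after their values were seen. Some genes that this rule names are not reported here. Alternatives were another pseudocount (0.1), other filters (none, or a mean of at least 0.5 FPKM), other scalings, no variance trend, a replicate block and leaving out each library.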

Additional observations from a re-analysis of the deposited data

How the results depend on the processing

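Under 14 alternatives, no member changed direction and 138 of 140 values stayed on their side of the threshold; the exceptions were Abcg1 without sham replicate 1 or 3. The members past the threshold thus numbered 7 or 8 in every alternative, with 7 higher. The log2 change ran from 2.86 to 3.33 for Plin2, 2.12 to 2.55 for Abca1, 2.01 to 2.77 for Ch25h, 1.02 to 1.30 for Lipa and −0.37 to −0.26 for Abcg1. Over all genes 8354 to 10745 passed. Of the 8 tested LXR partners and PPARs, 3 passed, against 1 with no filter on low values, 5 with quantile normalization and 1 to 3 with 1 library left out. Of the droplet genes 10 passed, and 5 to 9 with 1 library left out; the cause was not tested. Genes that had not passed changed sign under median-ratio scaling (Osbp at 0.0055 and Plin3 at 0.0302) and quantile normalization (Apoe at −0.0245). Replicate numbers gave no sign of pairing the libraries: deviations of same-numbered libraries from their group means correlated at −0.0076, −0.0386 and 0.0220. With 3 libraries per group this check cannot exclude a pairing. With the replicate number as a block 9443 genes passed, 8 members among them, and Psap (limma adjusted p = 0.0618) and Ncoa1 (0.0530) did not. With no filter on low values the calls on Rxrg (limma adjusted p = 0.0784), Ncoa1 (0.0588), Psap (0.144) and Vldlr (0.0688) were lost. The calls on Fabp4 (limma adjusted p = 0.108) and on the droplet genes Bscl2 (0.0863), Cidea (0.0544) and Cideb (0.0593) were lost there too. Limits are the 3 libraries per group, the mixture of cells, the haemoglobin share of SCI replicate 2 and the unknown depth.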
